A study of Rattus norvegicus with 18 samples.

Results

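Metallothioneins and zinc transporters, 7 of the 30735 genes in the deposited table, were examined in the rat cortex after subarachnoid hemorrhage (SAH). The members were chosen by symbol, with earlier results of these data known: the metallothioneins Mt1, Mt2A and Mt3, the exporters Slc30a1 and Slc30a3, and the importers Slc39a8 and Slc39a14. All 7 were in the table and all 7 passed the filter on low counts that left 18444 genes for testing. RNA-seq had been made from the cortex of adult Sprague Dawley rats, with 1 library per rat and 6 rats in each of 3 groups. The sham group had the surgery without the perforation of the vessel, and the SAH 1d and SAH 7d groups had SAH from an endovascular perforation and were sampled on day 1 or day 7. All rats were operated under pentobarbital anesthesia, and no genetic change, test compound or sex was given for any group. The labels name the cortex of both sides, whereas the study's methods name the cortex of the operated side, so the share of uninjured tissue in each library is not known. The controls were sham rats as 1 group, with no sham group of its own for each day, and the day on which they were sampled is not given.

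Metallothioneins are small cysteine-rich proteins that bind zinc and copper and buffer the free metal in the cell. The genes for Mt1 and Mt2A and the exporter gene Slc30a1 are classic targets of the zinc-sensing transcription factor Mtf1, which binds metal response elements in promoters. The genes for Mt1 and Mt2A also respond to glucocorticoids and inflammatory cytokines. In the brain, Mt1 and Mt2A are found mainly in astrocytes, Mt3 is a brain-enriched form first known as growth inhibitory factor, and Slc30a3 (ZnT3) loads zinc into synaptic vesicles of glutamatergic neurons.

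The promoter sequences are shown because the metallothioneins and Slc30a1 share a binding motif in them and Slc30a3 does not. The sequences are from RefSeq on the build GRCr8, which is not the build of the count table, and 6 of the 7 members had an entry. The core of the metal response element was searched as TGCACNC or TGCGCNC on both strands, from 250 bases before to 50 bases after the start of each gene. The 250 bases before the start are printed 5′ to 3′ along the gene, with the matches to the core in capitals.
Mt1 (chr19:10832976-10833225, minus strand): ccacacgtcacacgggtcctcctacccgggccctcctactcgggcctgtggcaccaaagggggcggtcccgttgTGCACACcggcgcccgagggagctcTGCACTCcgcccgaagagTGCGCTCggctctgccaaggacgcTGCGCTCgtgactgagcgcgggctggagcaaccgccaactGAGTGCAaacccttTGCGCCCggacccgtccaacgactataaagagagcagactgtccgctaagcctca
Mt2A (chr19:10838709-10838958, minus strand): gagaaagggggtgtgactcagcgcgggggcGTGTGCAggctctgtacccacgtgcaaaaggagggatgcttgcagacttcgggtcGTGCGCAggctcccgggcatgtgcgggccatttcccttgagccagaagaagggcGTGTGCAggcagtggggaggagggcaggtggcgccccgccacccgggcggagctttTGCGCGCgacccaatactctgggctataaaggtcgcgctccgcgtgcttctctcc
Mt3 (chr19:10856081-10856330, minus strand): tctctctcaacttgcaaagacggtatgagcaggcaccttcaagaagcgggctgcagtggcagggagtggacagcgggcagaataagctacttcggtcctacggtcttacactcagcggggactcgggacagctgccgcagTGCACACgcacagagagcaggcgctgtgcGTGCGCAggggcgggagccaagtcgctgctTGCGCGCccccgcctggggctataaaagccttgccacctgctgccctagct
Slc30a1 (chr13:106021769-106022018, plus strand): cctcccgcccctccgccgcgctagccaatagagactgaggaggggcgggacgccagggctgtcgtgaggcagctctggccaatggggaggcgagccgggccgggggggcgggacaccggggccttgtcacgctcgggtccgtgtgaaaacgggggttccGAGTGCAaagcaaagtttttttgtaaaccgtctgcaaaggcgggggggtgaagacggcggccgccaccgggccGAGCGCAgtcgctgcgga
Slc30a3 (chr6:30997164-30997413, plus strand): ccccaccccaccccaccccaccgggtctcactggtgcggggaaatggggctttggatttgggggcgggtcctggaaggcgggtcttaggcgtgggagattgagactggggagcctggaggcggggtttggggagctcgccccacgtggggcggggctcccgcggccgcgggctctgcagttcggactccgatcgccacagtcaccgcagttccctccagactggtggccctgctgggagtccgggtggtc

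Mt1 held 6 matches, Mt2A 4, Mt3 3 and Slc30a1 2, all of them before the start, while Slc30a3 and Slc39a8 held none. Of 33469 rat promoters of the same length, 24.2% held at least 1 match, 6.36% at least 2, 1.68% at least 3, 0.439% at least 4 and 0.0388% at least 6. These promoters were not matched for GC content, and their median was 51.7%. The GC content was 65.0% in Mt1, 63.7% in Mt2A, 62.7% in Mt3 and 70.3% in Slc30a1. It was 70.3% in Slc30a3 and 59.3% in Slc39a8, the members without a match. The core of the antioxidant response element, TGACNNNGC on both strands, had 1 match each in Mt1, Mt2A, Slc30a1 and Slc39a8, and 12.1% of all promoters held it. The Mt1 match to TGACNNNGC lay next to the metal response elements and overlapped none of them. The STAT motif TTCNNNGAA, found in 8.87% of promoters, matched only Slc39a8 among the 6, and the glucocorticoid response element core ACANNNTGT, found in 6.86%, matched none. A match is a string of letters and no measurement of binding. The promoters of Mt1, Mt2A and Mt3 lie in a row on the minus strand of chromosome 19.

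Levels between genes were compared on FPKM (the deposited level, scaled by gene length and by library depth), and groups were tested on the counts. Ranges and medians of the groups are given in FPKM as well. At day 1 the median log2 fold change of all genes was 0.108 on log2(FPKM + 0.1), against 0.00856 on the counts. Total counts ran from 27270026 to 38271014 per library. Differences were tested with the quasi-likelihood test of edgeR on 12 libraries per comparison, and a gene was called when its Benjamini-Hochberg adjusted p over 18444 genes was under 0.05. CPM is the count scaled to library size after TMM normalisation, and log2 fold changes are given with their standard error (SE). The libraries SAH 1d-3 and, on day 7, SAH 7d-5 stood apart, with a median Spearman correlation to the other libraries of their group of 0.939 and 0.925, against 0.961 to 0.964 in the other 16 libraries. In SAH 7d-5 the 10 neuron markers summed to 2614 CPM, against 7459 to 9801 CPM in the other SAH 7d libraries, and the 6 markers of monocytes and macrophages in the table to 8823 CPM, against at most 326.6 CPM. In SAH 1d-3 the latter sum was 516.1 CPM, against at most 148.2 CPM in the other SAH 1d libraries. Neuron, astrocyte and oligodendrocyte markers were present in all libraries, and no marker in the table was at 0 in every library. At day 1 edgeR called 1 of 8 oligodendrocyte, 1 of 7 mural cell, 1 of 7 meningeal fibroblast, 1 of 2 tested neutrophil and 3 of 6 monocyte and macrophage markers, all higher. It called 2 microglial markers of 8 higher and 1 lower, and 0 of 5 red cell markers. Of all genes it called 14.9% higher and 10.5% lower at day 1. Values without SAH 1d-3 or SAH 7d-5 are given beside the members' own values. In bulk tissue, fewer cells of a type and less RNA per cell cannot be told apart.

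In the sham cortex the median levels of the 7 genes spanned a wide range. Mt3 was highest, at a median of 126.2 FPKM, followed by Slc30a3 at 60.7 FPKM and Mt2A at 28.3 FPKM. Slc30a1 had a median of 9.54 FPKM, Slc39a14 5.24 FPKM and Slc39a8 1.17 FPKM. Mt1 was lowest, at 0.482 FPKM. Mt1 rested on only 2 to 13 reads per sham library.

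**Figure D1:**
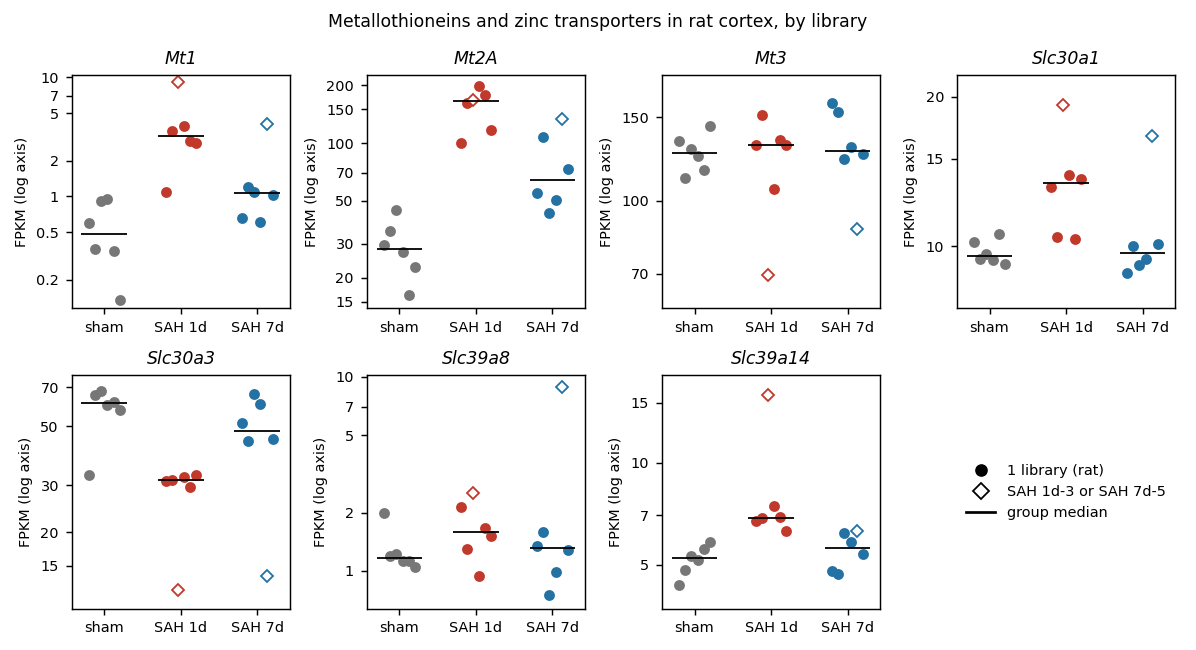
FPKM of the 7 genes on log axes, with 1 point per library, the group median as a line, with open diamonds for SAH 1d-3 and for SAH 7d-5. The 6 SAH 1d libraries lie above all sham libraries for Mt1 and Mt2A and below all of them for Slc30a3, and the 2 open diamonds lie at or near an extreme of their group for most genes.

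On day 1 after SAH, 3 of the 7 members were called against sham, beside 25.4% of all 18444 genes. Mt1 and Mt2A rose 6.02-fold and 4.86-fold, and the vesicular zinc transporter Slc30a3 was 2.2-fold lower. All 3 passed 2-fold, as did 6.64% of all genes, although Slc30a3 was 1.98-fold lower without SAH 1d-3, and all 3 had no overlap between the 6 SAH 1d and the 6 sham libraries in CPM, as did 13.5% of all genes. The median log2 fold change was 0.36 over the 7 members and 0.01 over all genes. Since the members were chosen with earlier results of these data known, these comparisons with all genes are a description. Mt3, Slc30a1, Slc39a8 and Slc39a14 did not pass the test.

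Mt2A had the higher deposited level of the inducible pair, although the level of Mt1 is uncertain for the reason given below. Mt2A ran from 16.2 to 44.6 FPKM in sham (median 28.3) and from 99.8 to 197.3 FPKM in SAH 1d (median 164.8). In SAH 7d it ran from 43.1 to 133.5 FPKM (median 64.0). Every SAH 1d library was above every sham library, by more than 2-fold between the closest ones, and the SAH 7d libraries lay between the other groups and overlapped both. The log2 fold change of Mt2A at day 1 was 2.28 (SE 0.242, adjusted p = 6.57e-05, edgeR). Without SAH 1d-3 the log2 fold change was 2.25 (adjusted p = 4.17e-05, edgeR), so the value did not rest on that library.

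Mt1, the sister gene of Mt2A, had low counts throughout: 2 to 13 reads per library in sham, 14 to 143 in SAH 1d and 8 to 53 in SAH 7d. Its levels were 0.135 to 0.955 FPKM in sham (median 0.482), 1.1 to 9.15 FPKM in SAH 1d (median 3.21) and 0.615 to 4.02 FPKM in SAH 7d (median 1.06). The 6 SAH 1d libraries were all above sham, with SAH 1d-3 far above the other SAH 1d libraries. The margin was narrow, with SAH 1d-1 at 0.425 CPM (14 reads) and sham-3 at 0.412 CPM (11 reads). The log2 fold change was 2.59 (SE 0.515, adjusted p = 0.00369, edgeR), and 2.12 (adjusted p = 0.00317, edgeR) without SAH 1d-3. Mt1 has processed pseudogenes and close paralogs in the rat, and how the counting divided reads between near-identical copies is not given in the sources used here, so its level is uncertain.

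Mt3, with the highest sham level of the 7 genes, did not pass the test at day 1. It ran from 111.8 to 144.1 FPKM in sham (median 126.2), from 69.5 to 151.8 FPKM in SAH 1d (median 130.8) and from 87.2 to 160.8 FPKM in SAH 7d (median 127.5). The 3 groups overlapped almost entirely, and the lowest library of each SAH group was SAH 1d-3 or SAH 7d-5. At day 1 the log2 fold change was -0.19 (SE 0.149, adjusted p = 0.37, edgeR), and -0.08 (adjusted p = 0.592, edgeR) without SAH 1d-3.

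The balance among the metallothioneins is described here by their FPKM. The ratio of Mt2A to Mt3 in FPKM ran from 0.14 to 0.348 in sham, from 0.763 to 2.41 in SAH 1d and from 0.341 to 1.53 in SAH 7d. Mt2A exceeded Mt3 in 0 of 6 sham libraries, in 4 of 6 SAH 1d libraries and in 1 of 6 SAH 7d libraries, the last being SAH 7d-5. The sham and SAH 1d ratios did not overlap. Summed over Mt1, Mt2A and Mt3, the level was 132.5 to 173.8 FPKM in sham, 231.6 to 317.6 FPKM in SAH 1d and 166.4 to 263.0 FPKM in SAH 7d. The level of Mt1 in this sum is uncertain, as said above.

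**Figure D2:**
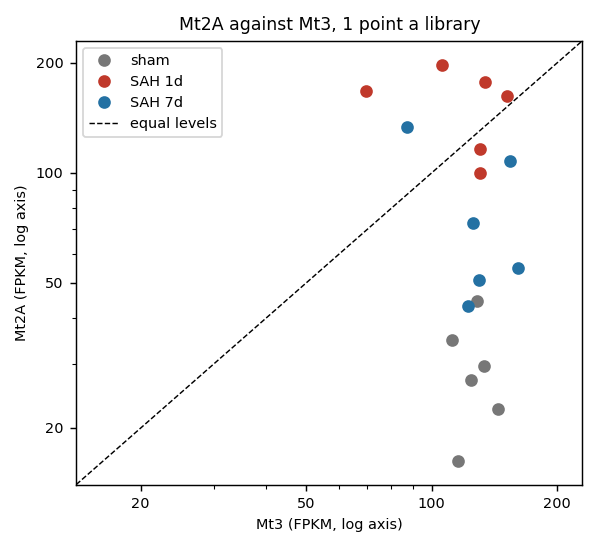
Mt2A against Mt3 in FPKM on log axes, with 1 point per library and a dashed line of equal levels. The sham libraries lie far below the line, 4 of 6 SAH 1d libraries lie above it, and the groups differ along the Mt2A axis more than along the Mt3 axis.

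Astrocyte markers moved in both directions at day 1. Of the 10 astrocyte markers, 2 were called higher and 2 lower at day 1, beside 14.9% and 10.5% of all genes. Gfap, an intermediate filament of reactive astrocytes, was up by a log2 fold change of 3.0 (adjusted p = 1.37e-06, edgeR). The water channel Aqp4 was at 0.26 (adjusted p = 0.334, edgeR), and Aldh1l1, a folate enzyme of astrocytes, was down at -0.85 (adjusted p = 0.008, edgeR). The median log2 fold change of the 10 was -0.17, with 3 of them above 0. Their summed level was 4018 to 6683 CPM in sham and 6424 to 7643 CPM in SAH 1d. Per 1000 CPM of these markers, Mt2A had 1.57 to 3.73 CPM in sham and 4.93 to 11.6 CPM in SAH 1d, with no overlap. Without Gfap, left out after its values were seen, the sum of the other 9 was 3720 to 6142 CPM in sham and 2716 to 4403 CPM in SAH 1d, and Mt2A had 1.7 to 4.02 and 8.57 to 24.1 CPM per 1000 CPM of it. Among 8 endothelial markers, 2 were called higher and 0 lower, beside the same 14.9% and 10.5% of all genes. The sum of the 8 was 278.1 to 483.0 CPM in sham and 301.4 to 466.5 CPM in SAH 1d. Per 1000 CPM of the endothelial markers, Mt2A had 22.5 to 53.5 CPM in sham and 121 to 245 CPM in SAH 1d, again with no overlap. The part of either cell type in the Mt2A result was not tested.

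Slc30a3, the synaptic vesicle transporter, was the only called member that fell. It ran from 32.8 to 67.6 FPKM in sham (median 60.7), from 12.1 to 32.8 FPKM in SAH 1d (median 31.3) and from 13.7 to 66.0 FPKM in SAH 7d (median 48.0). In CPM the 6 sham values were 73.4 in sham-1 and 121 to 143 in the others, and the SAH 1d values were 24.4 in SAH 1d-3 and 58.6 to 64.1 in the others. Sham-1 was thus the sham library closest to SAH 1d, and on FPKM it lay just above the highest SAH 1d library. The log2 fold change was -1.14 (SE 0.216, adjusted p = 0.00283, edgeR), and -0.99 (adjusted p = 0.000216, edgeR) without SAH 1d-3.

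Neuron markers fell in the same libraries. Of the 10 neuron markers 0 were called higher and 9 lower at day 1, beside 14.9% and 10.5% of all genes. The median log2 fold change of the 10 was -0.57. Among them Slc17a7, the vesicular glutamate transporter of cortical excitatory neurons, had -0.56 (SE 0.176, adjusted p = 0.0326, edgeR), and the synaptic protein Snap25 had -0.73 (adjusted p = 0.00225, edgeR). The summed level of the 10 was 6859 to 10620 CPM in sham, lowest in sham-1, and 5511 to 6664 CPM in SAH 1d, with no overlap. Per 1000 CPM of the neuron markers, Slc30a3 had 10.7 to 15.8 CPM in sham (median 12.4), 4.2 to 10.7 CPM in SAH 1d (median 9.7) and 10.4 to 15.5 CPM in SAH 7d (median 11.7). Relative to the neuron markers the sham and SAH 1d groups thus met at 10.7, and the SAH 7d group was close to sham. The part of the neuron markers' fall in the Slc30a3 result was not tested.

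**Figure D3:**
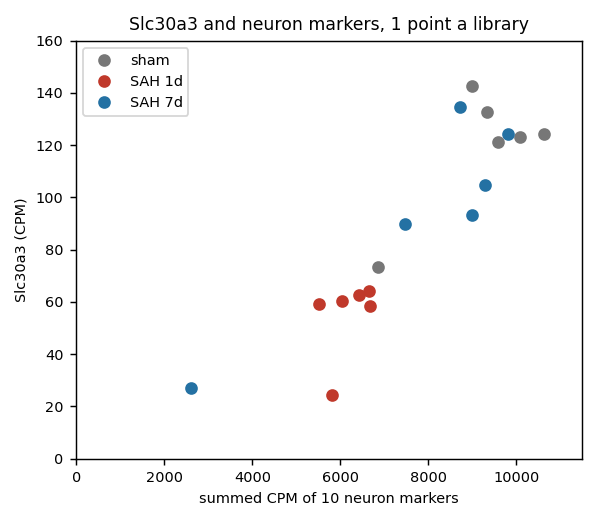
Slc30a3 in CPM against the summed CPM of the 10 neuron markers, with 1 point per library. The SAH 1d libraries have 24.4 to 64.1 CPM of Slc30a3 at sums of 5511 to 6664, sham-1 lies next to them at 73.4, and SAH 7d-5 lies far to the left at a sum of 2614.

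Slc30a1, the plasma membrane exporter and a classic Mtf1 target, had 9.22 to 10.6 FPKM in sham (median 9.54), 10.4 to 19.3 FPKM in SAH 1d (median 13.4) and 8.81 to 16.6 FPKM in SAH 7d (median 9.70). In CPM, 4 of 6 SAH 1d libraries were above all sham libraries, and the highest was SAH 1d-3. The log2 fold change at day 1 was 0.36 (SE 0.141, adjusted p = 0.0783, edgeR), which did not pass the test, and 0.21 (adjusted p = 0.109, edgeR) without SAH 1d-3.

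The importers carry zinc, manganese and iron into the cytosol. Slc39a14 (ZIP14), induced in the liver during the acute phase response, had 4.36 to 5.83 FPKM in sham (median 5.24), 6.29 to 15.8 FPKM in SAH 1d (median 6.88) and 4.69 to 6.30 FPKM in SAH 7d (median 5.60). In CPM 5 of 6 SAH 1d libraries were above all sham libraries, with SAH 1d-3 more than 2-fold above the others. In FPKM all 6 were above sham, but the share of all genes without overlap in FPKM was not counted. On log2(FPKM + 0.1) the median log2 fold change of all genes was 0.108, against 0.00856 on the counts. Its log2 fold change was 0.58 (SE 0.214, adjusted p = 0.0601, edgeR), which did not pass, and without SAH 1d-3 it was smaller but passed, at 0.28 (SE 0.0806, adjusted p = 0.0185, edgeR).

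Slc39a8 (ZIP8) had 1.05 to 1.99 FPKM in sham (median 1.17), 0.943 to 2.54 FPKM in SAH 1d (median 1.59) and 0.752 to 8.89 FPKM in SAH 7d (median 1.31). The groups overlapped, and the highest value, in SAH 7d-5, was over 5 times that of any other SAH 7d library. Its log2 fold change at day 1 was 0.27 (SE 0.247, adjusted p = 0.442, edgeR), and 0.10 (adjusted p = 0.773, edgeR) without SAH 1d-3. In SAH 7d-5, where the markers of monocytes and macrophages were also highest, Slc39a8 had 3.3 CPM per 1000 CPM of these markers, the lowest ratio of all libraries, and sham libraries had 42.2 to 76.7. The part of those cells in the Slc39a8 level was not tested.

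**Figure D4:**
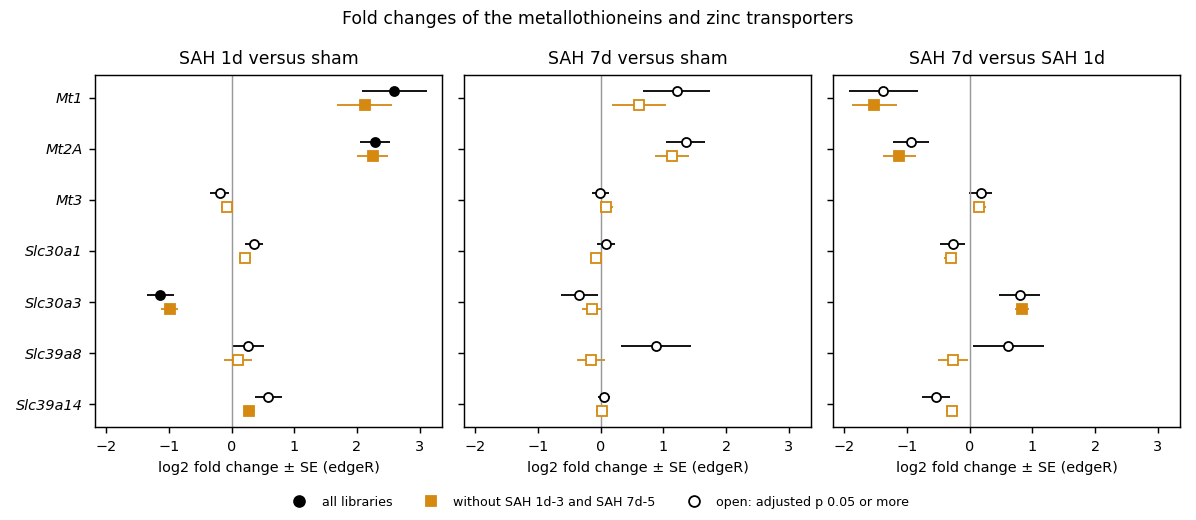
log2 fold changes ± SE of the 7 genes in the 3 comparisons, from all libraries and with SAH 7d-5 and SAH 1d-3 left out, with filled symbols for an adjusted p under 0.05. At day 1 Mt1 and Mt2A are filled to the right and Slc30a3 to the left in both fits, and in SAH 7d against SAH 1d these 3 are filled only in the fit without the 2 libraries.

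On day 7 after SAH no member was called against sham by edgeR (0 of 7), nor was any of the 18444 genes (0.0%), while 15.4% of the genes had an unadjusted p under 0.05. Among the members 2 had an unadjusted p under 0.05, DESeq2 called 1 (Mt2A), beside 2.49% of all genes, and limma voom called 0, beside 0.0108%. Mt2A had a log2 fold change of 1.35 (SE 0.312, adjusted p = 0.214, edgeR), with 5 of 6 SAH 7d libraries above all sham libraries, and DESeq2 gave an adjusted p of 0.00333. Without SAH 7d-5 it had 1.14 (adjusted p = 0.118, edgeR). Across the alternatives the adjusted p of Mt2A at day 7 ranged from 0.00333 to 0.529. Mt1 had 1.21 (SE 0.533, adjusted p = 0.309, edgeR), and 0.61 (adjusted p = 0.599, edgeR) without SAH 7d-5. Slc30a3 had -0.34 (SE 0.295, adjusted p = 0.543, edgeR), and -0.14 (adjusted p = 0.769, edgeR) without SAH 7d-5. Mt3, Slc30a1 and Slc39a14 had -0.01, 0.09 and 0.05. Slc39a8 had 0.88 (SE 0.555, adjusted p = 0.429, edgeR), which turned to -0.15 (adjusted p = 0.833, edgeR) without SAH 7d-5. Slc30a1 turned to -0.07 and Mt3 to 0.09 without that library, so neither direction at day 7 can be given.

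Between the days, SAH 7d against SAH 1d, edgeR called none of the members (0 of 7) and 1.37% of all genes. Of the members 4 had an unadjusted p under 0.05, beside 14.7% of all genes. DESeq2 called 1, beside 5.49% of all genes, and limma voom 2, beside 14.7%. This comparison shares its SAH 1d or its SAH 7d libraries with the comparisons against sham, so its values follow in part from them. Mt2A had a log2 fold change of -0.93 (SE 0.285, adjusted p = 0.141, edgeR), with 4 of 6 SAH 7d libraries below all SAH 1d libraries. Mt1 had -1.37 (SE 0.548, adjusted p = 0.257, edgeR), and Slc30a3 had 0.80 (SE 0.323, adjusted p = 0.269, edgeR), with 5 of 6 SAH 7d libraries above all SAH 1d libraries. Leaving out SAH 7d-5 and SAH 1d-3 brought all 3 past the threshold, in a fit that called 13.6% of all genes in place of 1.37%: Mt1 fell at -1.52 (adjusted p = 0.0158, edgeR), Mt2A fell at -1.12 (adjusted p = 0.0147, edgeR) and Slc30a3 rose at 0.83 (adjusted p = 0.00077, edgeR). Leaving out SAH 7d-5 alone called the same 3, beside 8.38% of all genes. Slc39a14 had -0.54 (SE 0.227, adjusted p = 0.29, edgeR) and, without both libraries, -0.28 (adjusted p = 0.0749, edgeR).

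The order of the group medians was sham, SAH 7d, SAH 1d from low to high for Mt1, Mt2A, Slc30a1, Slc39a8 and Slc39a14 in FPKM, and the reverse for Slc30a3. For Slc30a1 the sham and SAH 7d medians were 26.6 and 26.5 CPM, so their order turned with the unit. For Mt1, Mt2A and Slc30a3 only sham and SAH 1d, the ends of that order, did not overlap in CPM, and neighbours in the order overlapped. Over all genes, 1.27% did not overlap between SAH 7d and sham and 3.06% between SAH 7d and SAH 1d. For Mt3 the medians of the 3 groups lay between 126.2 and 130.8 FPKM, and no order is given.

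The other genes of metal handling were taken from 4 lists: the other metallothioneins, the other zinc exporters of the SLC30 family, the other zinc importers of the SLC39 family, and genes of metal sensing and copper handling. Of 33 listed genes 28 were tested, and at day 1 edgeR called 11, of which 9 were higher and 2 lower, beside 14.9% and 10.5% of all genes. The count fell to 6 without sham-4, to 7 without sham-5 and to 5 when all 18 libraries were fitted together. These fits called 19.9%, 19.2% and 13.3% of all genes, against 25.4% in the main fit. The median log2 fold change of the 28 genes at day 1 was 0.14. At day 7 edgeR called 0 of 28 against sham, with 4 at an unadjusted p under 0.05, beside 15.4% of all genes. DESeq2 and limma voom called 0 of the 28, beside 2.49% and 0.0108% of all genes. In SAH 7d against SAH 1d edgeR called 0 of 28, with 6 at an unadjusted p under 0.05, beside 14.7% of all genes. DESeq2 called 3, beside 5.49% of all genes, and limma voom 7, beside 14.7%.

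Mt1m, a further metallothionein with 2 to 13 reads per sham library, rose at day 1 by a log2 fold change of 1.55 (SE 0.467, adjusted p = 0.028, edgeR), although 1 SAH 1d library lay within the sham range. RefSeq lists Mt1m as a pseudogene in the rat, and its reads may be shared with Mt1. Mt4, the form of stratified epithelia, had at most 6 reads in any library and was not tested. Mtf1, the zinc sensor itself, rose by 0.28 (SE 0.0908, adjusted p = 0.0357, edgeR), with 5 of 6 SAH 1d libraries above all sham libraries. The call of Mtf1 was lost in 9 of 12 fits that left out 1 library, with the replicate block, without the count filter and in the fit of all 18 libraries (adjusted p from 0.00543 to 0.0811 over the alternatives), and that of Mt1m in 4 of 12 fits that left out 1 library.

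Of the 6 other exporters tested 1 was higher and 1 lower at day 1, beside 14.9% and 10.5% of all genes. Slc30a4, an exporter of the endosomal compartment, rose by 0.30 (SE 0.0715, adjusted p = 0.0102, edgeR), and Slc30a9, a mitochondrial zinc exporter, fell by 0.29 on the log2 scale (SE 0.0604, adjusted p = 0.00463, edgeR). Both did so with no overlap between the groups in CPM, as did 13.5% of all genes. Of the 11 other importers tested 2 were higher and 1 lower, beside the same 14.9% and 10.5% of all genes. Slc39a1 (ZIP1) rose by 1.18 (SE 0.151, adjusted p = 0.000246, edgeR) and Slc39a6 by 0.55 (SE 0.177, adjusted p = 0.0359, edgeR), while Slc39a10 fell by 0.82 on the log2 scale (SE 0.124, adjusted p = 0.000755, edgeR). The calls of Slc39a1 and Slc39a10 held in every alternative, that of Slc30a9 was lost on FPKM, that of Slc30a4 in the fit of all 18 libraries, and that of Slc39a6 in 5 of 12 fits that left out 1 library, with the replicate block and in the fit of all 18 libraries. Without SAH 1d-3, Slc39a1 had 1.01, Slc39a6 0.33 and Slc39a10 -0.75. Slc39a10 ran at 53.9 to 77.8 FPKM in sham and 30.9 to 51.9 FPKM in SAH 1d, with no overlap. Its groups did not overlap in CPM either, as with 13.5% of all genes.

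Of the 10 genes of metal sensing and copper handling 5 were higher, Mtf1 among them, and 0 lower at day 1, beside 14.9% and 10.5% of all genes. Cp, the gene of the copper-carrying ferroxidase ceruloplasmin, rose by 2.38 (SE 0.343, adjusted p = 0.00058, edgeR), from 2.51 to 9.24 FPKM in sham to 19.0 to 49.6 FPKM in SAH 1d. Atp7a, a copper-exporting ATPase, rose by 0.81 (SE 0.169, adjusted p = 0.00493, edgeR), and Slc31a2, a relative of the copper importer Slc31a1, rose by 0.65 (SE 0.223, adjusted p = 0.047, edgeR). Without SAH 1d-3 the values were 2.08 for Cp, 0.64 for Atp7a and 0.39 for Slc31a2. The call of Cp held in every alternative, that of Atp7a was lost in the fit of all 18 libraries, and that of Slc31a2 in 9 of 12 fits that left out 1 library, with the replicate block, without the count filter and in the fit of all 18 libraries (adjusted p from 0.0204 to 0.289 over the alternatives). Choroid plexus markers also moved at day 1, with 3 of 6 tested called higher and 0 lower, beside 14.9% and 10.5% of all genes. Their summed level was 5.18 to 69.1 CPM in sham and 24.4 to 1096 CPM in SAH 1d. The sum was 759.9 CPM in SAH 1d-4 and 1096 CPM in SAH 1d-6, while the other SAH 1d libraries, at 24.4 to 49.7 CPM, lay within the sham range. The part of choroid plexus tissue in these results was not tested.

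**Figure D5:**
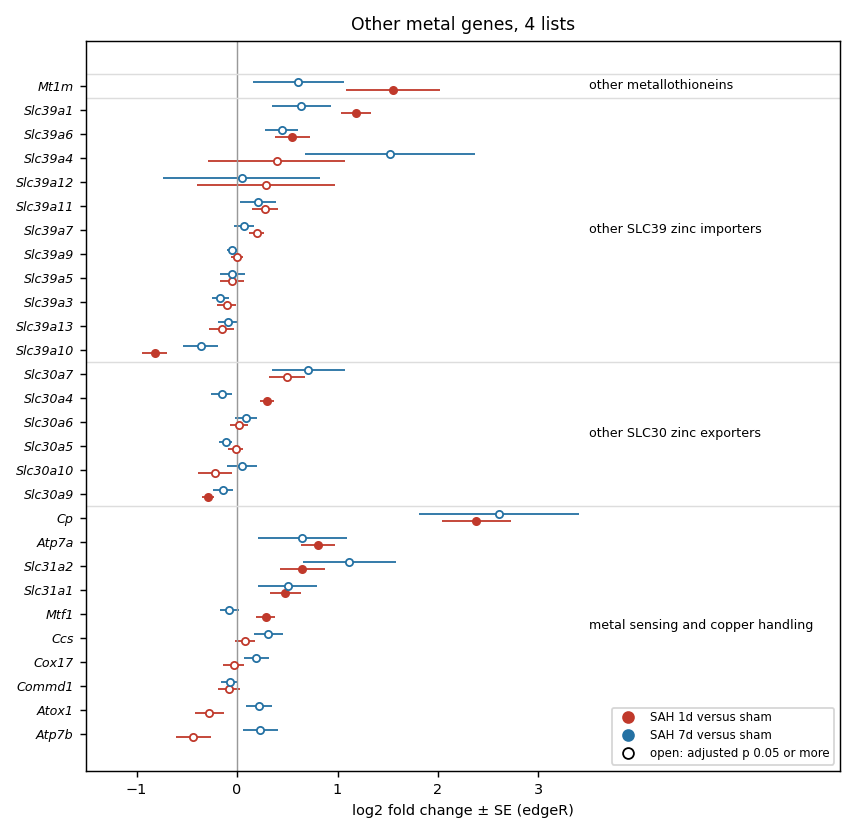
log2 fold changes ± SE of the 28 tested metal genes outside the 7 members, for SAH 1d and SAH 7d against sham, grouped by list, with filled symbols for an adjusted p under 0.05. Filled symbols appear for SAH 1d only, 9 to the right, led by Cp, and 2 to the left, led by Slc39a10.

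The genes whose levels followed each member most closely over the 18 libraries were ranked by Spearman's rho of log2 CPM, as a description, since all libraries share the 3 groups and the same normalisation. Mt2A was closest to Zfp36, which speeds the decay of cytokine mRNAs (0.959), Tpm4 (0.94) and the NF-kappaB subunit gene Nfkb2 (0.94). Mt1 was closest to the chemokine Cxcl16 (0.955), Ddx39a (0.95) and Ppp4r1 (0.942), and its rho with Mt2A was 0.882. Mt3 was closest to Cox8a (0.866) and Fis1 (0.856), both of mitochondria, and to Scp2 (0.827). Slc30a3 had a rho of 0.955 with Arnt2 and of 0.955 with AC141969.1, and its rho was -0.752 with Mt2A and -0.721 with Mt1. Slc30a1 was closest to the splicing factor Sf3b1 (0.938), Csgalnact2 (0.932) and Nmd3 (0.911). Slc39a14 was closest to the amino acid transporter Slc38a2 (0.895), Nup153 (0.893) and Pprc1 (0.891). Slc39a8 was closest to Gtf2a2 (0.94), LOC100360449 (0.913) and Shcbp1 (0.901).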

How the data were processed

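Libraries were grouped by the deposited labels, with 6 rats in each of 3 groups. The authors deposited raw read counts per gene and FPKM, made from fastp-trimmed reads aligned with HISAT2 per the labels. The study's methods name the rat build Rnor_6.0 and the labels a mouse build, while annotated genes carry Ensembl rat identifiers; the counting program is not given in the sources used here. The table has 8685 unannotated loci among its 30735 genes, and 3100 of them were tested.

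Counts were tested in R 4.3.3 with edgeR 4.0.16 (quasi-likelihood test, TMM, filterByExpr on all 18 libraries), on the 12 libraries of each comparison, with Benjamini-Hochberg adjustment over 18444 genes and a threshold of 0.05. Log2 CPM used a prior count of 2. The SE is the size of the log2 fold change divided by the square root of F. Alternatives were DESeq2 1.42.0, limma 3.58.1 (voom with sample quality weights, and log2(FPKM + 1) or log2(FPKM + 0.1) with a mean FPKM of at least 0.5), DESeq2 size factors, all 18 libraries in 1 fit, other count filters (none, or at least 10 counts in every library), a replicate block, and leaving out libraries. A fold change on the log2(FPKM + pseudocount) scale understates the change of low genes. Scripts were tested on simulated data. Tables were made with Python 3.11.15.

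Members and lists were chosen with earlier results of these data known. Genes named were the 7 members; of each list of other metal genes the called genes with the 3 largest changes per direction, plus Mtf1 and the other metallothioneins; the 3 genes closest to each member (1 of them is not reported here); and markers a result turned on. Marker lists covered neurons, astrocytes, oligodendrocytes, microglia, endothelial and mural cells, fibroblasts of the meninges, choroid plexus, neutrophils, monocytes with macrophages, and red cells. No 2 libraries of a group held duplicated counts (chi-square per degree of freedom of 13.98 or more in all 45 pairs). With total counts of 27270026 to 38271014, a gene with few reads, such as Mt1, has a wide counting error, which the fit includes.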

Additional observations from a re-analysis of the deposited data

Results flagged for a closer look

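In 8 of 21 sets of 6 values (7 genes in 3 groups, CPM) the highest or lowest library lay farther from its nearest neighbour than Dixon's 95% limit for 6 samples allows. For independent sets of normally distributed values about 1 in 20 would do so. The 21 sets share the same 18 libraries, so that rate is no measure of chance here. Of the 8 cases 3 were in SAH 1d-3, 3 in SAH 7d-5 and 2 in sham-1.

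SAH 1d-3 had 3.66 CPM of Mt1 against 0.425 to 1.59 in the other SAH 1d libraries, 24.4 CPM of the vesicular zinc transporter Slc30a3 against 58.6 to 64.1, and 76.3 CPM of the importer Slc39a14 against 29.0 to 35.8. SAH 7d-5 had 1.59 CPM of Mt1 against 0.275 to 0.488 in the other SAH 7d libraries, 43.8 CPM of the exporter Slc30a1 against 24.0 to 28.2, and 29.1 CPM of the importer Slc39a8 against 2.54 to 5.37. Sham-1 had 73.4 CPM of Slc30a3 against 121 to 143 in the other sham libraries, and 7.38 CPM of Slc39a8 against 3.68 to 4.27. Sham-1 also had the highest summed level of oligodendrocyte markers, 19320 CPM, and of astrocyte markers, 6683 CPM, among the sham libraries, and the lowest of neuron markers, 6859 CPM. The part of these marker levels in the gene values was not tested.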

How the results depend on the processing

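Mt1, Mt2A and Slc30a3 were called for SAH 1d against sham in every alternative that tested them (Mt1 was not tested where at least 10 counts were required in every library). Of 480 member results under the alternatives 438 kept their direction and their side of the threshold, 23 newly passed it, 0 lost it and 19 turned in direction, and none of those 19 was called. Members called at day 1 were 3, with 5 under limma voom and both filtered FPKM settings, which add Slc30a1 and Slc39a14. They were 4 under DESeq2 (adds Slc39a14), 4 on unfiltered FPKM (adds Slc30a1) and 3 to 4 when 1 library was left out. They were 4 without both libraries that stand apart, and 2 with at least 10 counts in every library, where Mt1 was not tested. Of all genes, the main fit called 25.4%, limma voom 35.3%, the filtered FPKM settings 29.0% and 29.3%, DESeq2 30.3% and unfiltered FPKM 16.4%. The share was 19.1 to 28.5% when 1 library was left out, 28.5% without both libraries and 28.2% with at least 10 counts. At day 7 against sham the count of members called was 0, and 1 with DESeq2 (Mt2A), which called 2.49% of all genes. For SAH 7d against SAH 1d it was 0, with 1 under DESeq2, 2 under limma voom, 0 to 3 when 1 library was left out, and 3 without both SAH 7d-5 and SAH 1d-3. Those 4 settings called 5.49%, 14.7%, 0.553 to 8.38% and 13.6% of all genes, against 1.37% in the main fit. Other metal genes called at day 1 were 11, with 5 in the fit of all 18 libraries, which called 13.3% of all genes, and 6 to 10 when 1 library was left out. For SAH 7d against SAH 1d they were 0, with 3 under DESeq2 and in the fit of all 18 libraries, 7 under limma voom, 1 in each FPKM setting, 0 to 6 when 1 library was left out, and 6 without both SAH 7d-5 and SAH 1d-3. The cause of these differences was not tested.

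Directions turned for results near 0. Mt3 at day 7 against sham had -0.01, and 0.0884 with limma voom, 0.00129 with at least 10 counts, 0.0183 on log2(FPKM + 1) with and without the filter, 0.0182 on log2(FPKM + 0.1), 0.0938 without both SAH 7d-5 and SAH 1d-3, and -0.0776 to 0.0938 when 1 library was left out (0.0357 without sham-1, 0.0374 without sham-6, 0.0126 without SAH 7d-3). Slc30a1 at day 7 against sham had 0.09, and -0.0399 with limma voom, -0.07 without SAH 7d-5 alone or with SAH 1d-3, and -0.07 to 0.136 when 1 library was left out. Slc39a8 at day 7 against sham had 0.88, and -0.0554 with limma voom, -0.152 without SAH 7d-5, and -0.152 to 1.08 when 1 library was left out. Slc39a8 for SAH 7d against SAH 1d had 0.62, and -0.325 with limma voom, -0.27 without both libraries, and -0.437 to 0.805 when 1 library was left out, the lowest without SAH 7d-5.

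Same-numbered libraries did not deviate together (correlations of -0.253 to 0.197, and 2 of 18 libraries closest to their own number). The main fit therefore used no pairing by number, although low correlations cannot exclude one. With the replicate block 3 members stayed called at day 1 (adjusted p = 0.00806 for Mt1, 0.00118 for Mt2A and 0.0153 for Slc30a3, edgeR), 0 in the other comparisons, and all genes called for SAH 7d against SAH 1d went from 252 to 29.

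All genes called at day 1 were 4684 and ran from 2462 (all 18 libraries in 1 fit) to 6502 (limma voom). At day 7 against sham they were 0, with 459 under DESeq2, 2 under limma voom and 9 in the fit of all 18 libraries, and for SAH 7d against SAH 1d 252, with 1012 under DESeq2, 2718 under limma voom, 102 to 1545 when 1 library was left out and 2512 without both SAH 7d-5 and SAH 1d-3. On FPKM, 79 to 81.6% of the genes called at day 1 were higher, against 58.7% on counts, and the median log2 fold change of all genes was 0.108 on log2(FPKM + 0.1). Low counts of Mt1, 1 sham group for both days and 2 libraries that stand apart limit these results.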

Other observations

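Slc39a12, a zinc importer of astrocytes in the brain, varied within every group far more than between groups. It had 1.17 to 17.1 CPM in sham, 3.03 to 32.0 CPM in SAH 1d and 1.82 to 26.0 CPM in SAH 7d, from 36 to 1055 reads per library. In sham, 4 libraries had 12.5 CPM or more and 2 had 2.47 CPM or less. In SAH 1d, 3 libraries had 13.3 CPM or more and the others 4.13 CPM or less, and in SAH 7d, 3 libraries had more than 14 CPM and the others 2.66 CPM or less. Its log2 fold change was 0.29 (SE 0.687, adjusted p = 0.786, edgeR) for SAH 1d against sham. SAH 1d-3, with 13.3 CPM, and SAH 7d-5, with 2.66 CPM, lay inside the range of their groups. The gene was singled out after its values were seen, and the spread was not tested.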
